A study of Mus musculus with 8 samples.

Results

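The genes described here encode the GluN2 and GluN3 subunits of the NMDA receptor and the scaffold proteins that hold it at the synapse, in the striatum of 8 mice. They were chosen by symbol: Grin2a, Grin2b, Grin2c, Grin2d and Grin3a for the receptor, and Dlg1, Dlg2, Dlg3, Dlg4 and Dlgap1 for the scaffold. Every probe set that the platform annotation assigned to exactly 1 of these symbols was taken, which gave 27 of the 45037 probe sets tested and 10 of the 18193 genes with such a probe set. Of the 27 probe sets, 11 read receptor subunits and 16 read scaffolds. The 4 mutants were CHL2 knock-in mice, in which 150 CAG repeats from exon 1 of the human Huntington's disease gene sit in the mouse's own Htt gene, on both copies (Q150/Q150). Mice 141, 153 and 154 were female and mouse 191 was male. The 4 controls were wild type, with mouse 161 female and mice 170, 180 and 200 male. All mice were C57BL/6 X CBA F1 hybrid animals aged 22 months, and the mutation is carried in every cell from conception, so it is not limited to the striatum or to neurons. Each mouse gave 1 array, and the comparison asks which striatal transcripts differ between the genotypes at this age.

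NMDA receptors are glutamate-gated channels that also need a co-agonist, glycine or D-serine, and that pass calcium when glutamate binding coincides with depolarisation. Each channel combines the obligatory GluN1 subunit, which binds the co-agonist, with GluN2 subunits, which bind glutamate, or GluN3 subunits, which bind glycine. In the striatum they sit mainly on the spines of medium spiny neurons, where cortical and thalamic axons end. The Dlg genes encode membrane-associated guanylate kinases, called MAGUKs, whose PDZ domains bind the tails of GluN2 subunits, and Dlgap1 encodes a protein that binds the guanylate kinase domain of MAGUKs and links them to Shank proteins. Grin1, which encodes GluN1, was not analysed here.

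Promoter sequence is shown for Grin2c, because it was the gene that passed the test, and for Grin2d, a GluN2 gene that did not. The windows run from 250 bases before to 50 bases after the annotated start and are written 5′ to 3′ along the gene, with matches to the GC box GGGCGG in capitals. They come from RefSeq on GRCm38.p6, at chr11:115267194-115267493 for Grin2c and chr7:45866632-45866931 for Grin2d, both on the minus strand.
Grin2c: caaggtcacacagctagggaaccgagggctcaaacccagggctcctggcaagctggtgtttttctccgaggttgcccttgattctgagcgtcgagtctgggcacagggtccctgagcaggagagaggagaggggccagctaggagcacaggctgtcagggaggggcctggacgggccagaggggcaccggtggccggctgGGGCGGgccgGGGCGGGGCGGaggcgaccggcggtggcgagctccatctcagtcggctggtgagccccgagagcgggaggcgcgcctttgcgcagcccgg
Grin2d: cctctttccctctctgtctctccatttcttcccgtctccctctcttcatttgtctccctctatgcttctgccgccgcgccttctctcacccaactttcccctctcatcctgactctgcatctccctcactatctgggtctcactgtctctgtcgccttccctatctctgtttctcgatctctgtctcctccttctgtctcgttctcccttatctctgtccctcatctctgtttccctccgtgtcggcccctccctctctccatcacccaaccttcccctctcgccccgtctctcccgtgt
The Grin2c window had a GC content of 70% and 22 CpG dinucleotides, and held 3 GC boxes, the last pair of which overlap by a base. The Grin2d window had a GC content of 56% and 12 CpG dinucleotides, and held 0 GC boxes. The median GC content of all windows was 52.7%. For the 10 genes, 7 had windows in the table, 16 windows in all, and Grin2a, Grin2b and Grin3a had none. GGGCGG, searched on both strands, was found in 5 of the 16 windows, against 35.7% of the 32851 windows of all genes. The cyclic AMP response element TGACGTCA was found in 0 of the 16, against 1.79% of all windows. The left part of the RE1 silencer element, searched as TTCAGCACC, was also found in 0 of the 16, against 0.371% of all windows. These are matches of letters and were not tested for binding.

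Levels are log2 values after robust multi-array averaging (RMA), so a difference of 1 is a 2-fold difference in signal. A level cannot be set against that of another probe set, because probes differ in brightness. Changes are mutant minus wild type, from limma with genotype and recorded sex as terms, and a probe set was called at a Benjamini-Hochberg adjusted p under 0.05 over all probe sets. The 95% intervals are for single probe sets. Medians of the arrays lay between 4.95 and 4.98. Values under 5 lay near or below those medians and are called dim here.

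The array of wild-type mouse 170 stood apart. Controls for Gapdh read 1.37 higher at the 3′ end than at the 5′ end on the log2 scale, where the other 7 mice gave 0.32 to 0.43, and for beta-actin the difference was 2.65, where they gave 1.23 to 1.51. Its 18S ribosomal RNA probe sets averaged 9.42, against 6.84 to 8.31 elsewhere. In this mouse 404 of all probe sets lay more than 1 below the mean of the other mice of its genotype, against 15 to 43 in the other mice. Among the 27 probe sets it was the lowest of the 8 mice in 11, which is 40.7%, against 14.4% of all probe sets. Calls that changed without mouse 170 are therefore given both ways, with the main estimates beside them, and what part its RNA quality had in them was not tested. The array weights fitted by limma were 0.59 for mouse 170 and 0.61 for mutant 153, against 0.96 to 1.73 elsewhere.

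Few of the receptor and scaffold probe sets differed between the genotypes, and none was called higher in mutants. With all mice, 1 of the 27 probe sets was called, Grin2c, and it was lower in mutants. Over all probe sets 6.7% were called and 3.44% were called lower, so the share among the 27, 3.7%, was near the background. Estimates were below 0 for 16 of the 27, against 22183 of all 45037 probe sets. Their median was -0.07, against 0.00 over all probe sets. The 26 probe sets that were not called had estimates from -0.61 to 0.17. Without mouse 170, 5 of 27 were called, all of them lower: Grin2c, 1 probe set of Grin2b, 2 of Dlg2 and 1 of Dlg4. The background without that mouse was 6.91% called and 3.63% called lower. The groups did not overlap for 2 of the 27 with all mice and for 7 without mouse 170, all lower in mutants. Of all probe sets 7.07% and 8.81% did not overlap and were lower in mutants. The values of all 27 are plotted by mouse.

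**Figure D1:**
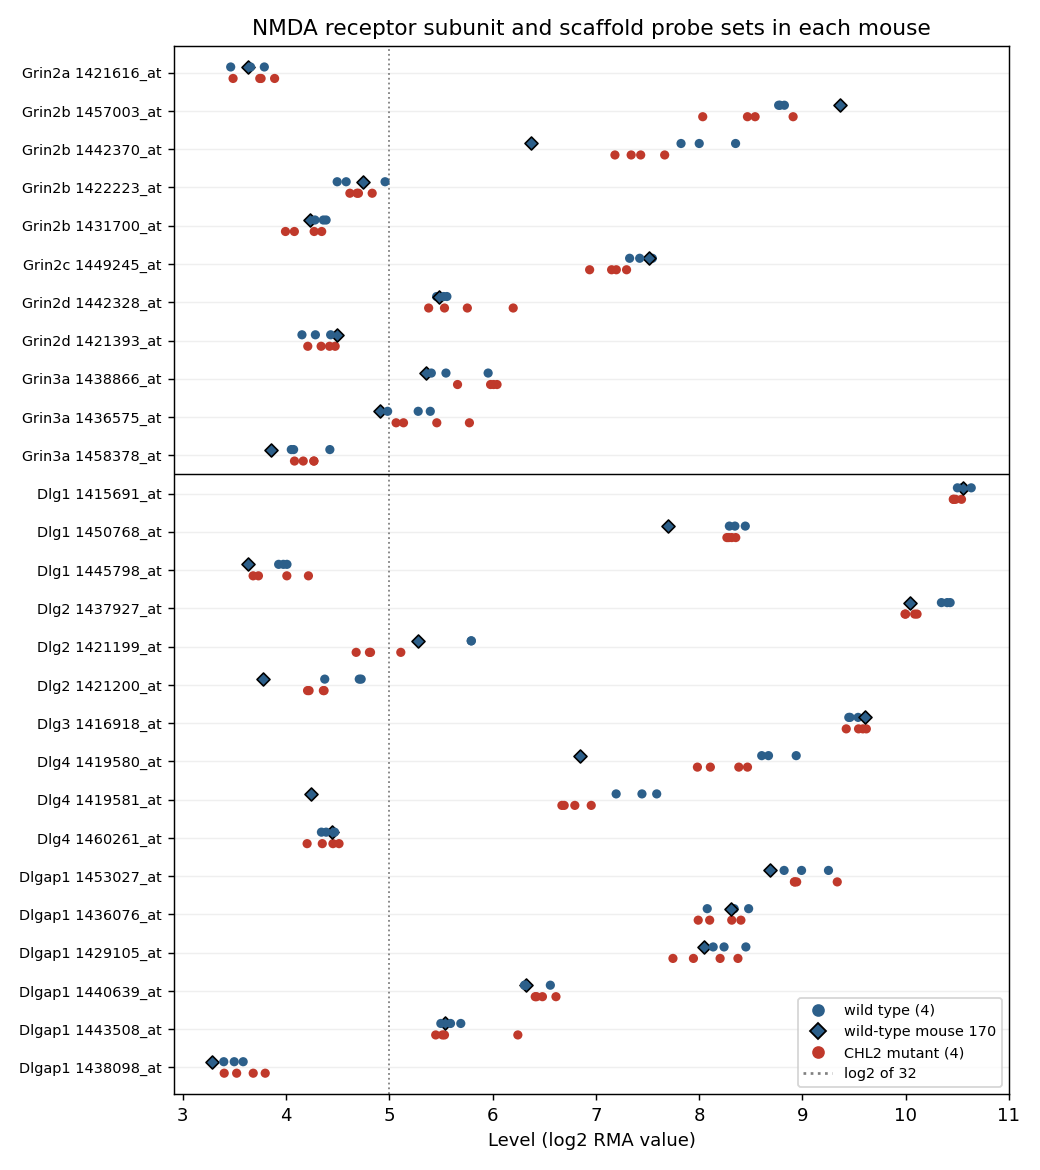
Log2 RMA level (x axis) of each probe set of the NMDA receptor subunit and scaffold genes (rows) in each of the 4 mutant and 4 wild-type mice, 1 point per mouse, with mouse 170 drawn apart from the other wild-type mice. Mutants lay below wild-type mice without overlap for Grin2c and for Dlg2 1421199_at, and mouse 170 lay far below the other wild-type mice for 2 probe sets of Dlg4 and 1 of Grin2b.

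Grin2c encodes GluN2C, a subunit of channels with weak magnesium block, best known from cerebellar granule cells and also expressed in astrocytes and some interneurons. Its probe set 1449245_at read 7.30, 7.20, 7.15 and 6.94 in mutants 141, 153, 154 and 191, and 7.55, 7.52, 7.33 and 7.42 in wild-type mice 161, 170, 180 and 200. All 4 mutants lay below all 4 wild-type mice. The means were 7.15 ± 0.15 (SD, n = 4) and 7.45 ± 0.10 (SD, n = 4), and the sex-adjusted change was -0.41 ± 0.09 (SE), with a 95% interval from -0.61 to -0.20. This is a 1.33-fold lower signal, with an adjusted p of 0.0279 in limma. Without mouse 170 the change was -0.38 (adjusted p = 0.0362). The call was lost without mutant 154 (-0.40, adjusted p = 0.0542) or wild-type 200 (-0.40, adjusted p = 0.0647). It was lost too without mutant 191 (-0.33), where the estimate rests on females with mouse 161 as the only wild type. The same held without wild-type 161 (-0.48), where it rests on males with mouse 191 as the only mutant. The call was also lost with no term for sex (-0.31, adjusted p = 0.0698).

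The cell types known for Grin2c were read from marker lists. Of 11 astrocyte markers 0 fell and 1 rose, and their mean level ran from 9.90 to 10.0 in mutants and from 9.89 to 10.1 in wild-type mice. Of 6 measured cerebellar granule cell markers 4 were dim in every mouse, among them Gabra6, the granule cell GABA receptor subunit, at 3.30 to 3.74. The list averaged 4.79 to 4.87 in mutants and 4.82 to 4.95 in wild-type mice. Of 12 striatal interneuron markers 1 fell, and their mean ran from 6.65 to 6.76 against 6.87 to 6.91, without overlap. What part these cells had in the Grin2c difference was not tested.

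Grin2b encodes GluN2B, a main GluN2 subunit of medium spiny neurons. Its 2 brighter probe sets did not give the same order of mice. Probe set 1457003_at read 8.54, 8.91, 8.47 and 8.03 in the mutants (in the order above) and 8.83, 9.36, 8.78 and 8.77 in wild-type mice, so mutant 153 overlapped the wild-type range and mouse 170 was the highest. The change was -0.56 ± 0.21 (SE; 95% interval -1.03 to -0.10; adjusted p = 0.166), and -0.45 without mouse 170 (adjusted p = 0.132), so it was called in neither fit. With no term for sex it was -0.45 (adjusted p = 0.18). It was -0.19 without mutant 191, the only male mutant, and -0.94 without wild-type 161, the only female wild type. Probe set 1442370_at read 7.18, 7.43, 7.34 and 7.67 in mutants and 7.82, 6.37, 8.35 and 8.0 in wild-type mice. Here mouse 170 was the lowest of all 8, at 1.69 below the mean of the other wild-type mice, and the other 3 wild-type mice lay above every mutant. The change was -0.21 ± 0.41 (SE; adjusted p = 0.865) with all mice and -0.51 ± 0.12 (SE; 95% interval -0.77 to -0.24; adjusted p = 0.0335) without mouse 170, a 1.42-fold lower signal. The other 2 probe sets of Grin2b, 1422223_at and 1431700_at, were dim in every mouse, with changes of -0.10 and -0.11.

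Grin2a encodes GluN2A, the other main GluN2 subunit of the adult forebrain, and its single probe set was dim in every mouse, with values from 3.46 to 3.89. The change was -0.05 (95% interval -0.25 to 0.16; adjusted p = 0.87), and -0.03 without mouse 170, which at this signal says little of the transcript. The within-array difference of Grin2b 1457003_at minus Grin2a averaged 4.77 ± 0.27 (SD, n = 4) in mutants and 5.30 ± 0.31 (SD, n = 4) in wild-type mice. Because Grin2a was dim on every array, this difference restates Grin2b and is given without a test.

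Grin2d encodes GluN2D, a subunit of slowly closing channels that in the striatum is found mainly in interneurons. Its probe set 1442328_at read 6.20, 5.76, 5.53 and 5.38 in mutants and 5.46, 5.48, 5.53 and 5.56 in wild-type mice, and only mutants 141 and 153 lay above the wild-type range. The change was 0.12 (95% interval -0.26 to 0.49; adjusted p = 0.802). The dim probe set 1421393_at also changed by 0.12 (adjusted p = 0.579). Without mouse 170 the estimates were 0.12 and 0.15.

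Grin3a encodes GluN3A, a subunit that lowers calcium entry and is most abundant in young brain. Its brightest probe set, 1438866_at, read 5.98, 6.01, 6.04 and 5.66 in mutants and 5.96, 5.36, 5.55 and 5.41 in wild-type mice. The female wild-type mouse 161 and the male mutant 191 lay inside the other group's range, so that within the females the values were close together. The unadjusted gap of means was 0.36 and the sex-adjusted change was 0.14 (95% interval -0.06 to 0.34; adjusted p = 0.474), and 0.11 without mouse 170 (adjusted p = 0.56). The other probe sets changed by 0.03 (1436575_at) and 0.07 (1458378_at) and were not called. The estimate for Grin3a thus depended on the sex term, and was above 0 where those of Grin2b and Grin2c were below 0.

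**Figure D2:**
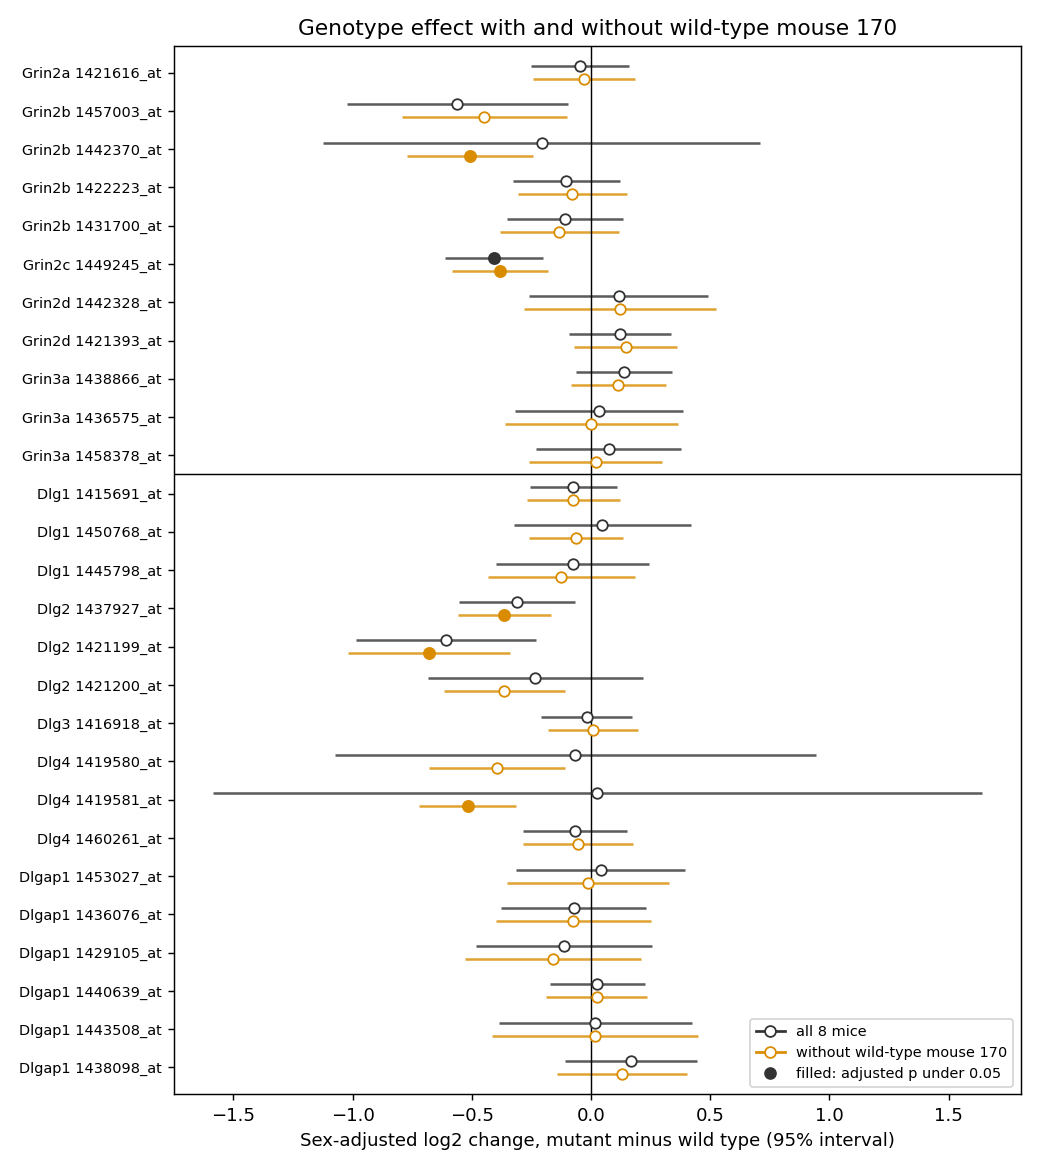
Sex-adjusted log2 change, mutant minus wild type (x axis), of each of the 27 probe sets (rows), with bars for the 95% interval, from the fit of all 8 mice and from the fit without mouse 170. The intervals of the Dlg4 probe sets 1419580_at and 1419581_at reach from -1.07 to 0.94 and from -1.59 to 1.64 with all mice and narrow to -0.68 to -0.11 and -0.72 to -0.31 without mouse 170.

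Among the MAGUKs, Dlg4 gave the widest spread of all. It encodes PSD-95, the most abundant MAGUK of excitatory synapses, and its 3 probe sets are annotated to the same sequence record. Probe set 1419580_at read 7.98, 8.11, 8.38 and 8.47 in mutants and 8.61, 6.84, 8.67 and 8.94 in wild-type mice. Probe set 1419581_at read 6.69, 6.67, 6.80 and 6.96 in mutants and 7.20, 4.24, 7.59 and 7.45 in wild-type mice. In both, wild-type mouse 170 was the lowest of all mice and the other wild-type mice were above every mutant. Mouse 170 lay 3.17 below the mean of the other wild-type mice in 1419581_at, the rank 3 lowest such gap of all 45037 probe sets, and 1.90 below it in 1419580_at, at rank 44.

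With all mice the Dlg4 changes were -0.07 ± 0.45 (SE; adjusted p = 0.966) and 0.03 ± 0.72 (SE; adjusted p = 0.992). Without mouse 170 they were -0.40 ± 0.13 (SE; adjusted p = 0.108) for 1419580_at and -0.52 ± 0.09 (SE; adjusted p = 0.0101) for 1419581_at, so 1 of them was called, at a 1.43-fold lower signal. Against the remaining 3 wild-type mice, whose means were 8.74 ± 0.18 (SD, n = 3) and 7.41 ± 0.20 (SD, n = 3), the mutant means were 8.24 ± 0.23 (SD, n = 4) and 6.78 ± 0.13 (SD, n = 4). The third Dlg4 probe set, 1460261_at, was dim in every mouse, was not low in mouse 170 (4.45, where wild-type mice 161, 180 and 200 ranged from 4.34 to 4.47), and changed by -0.07 (adjusted p = 0.804).

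**Figure D3:**
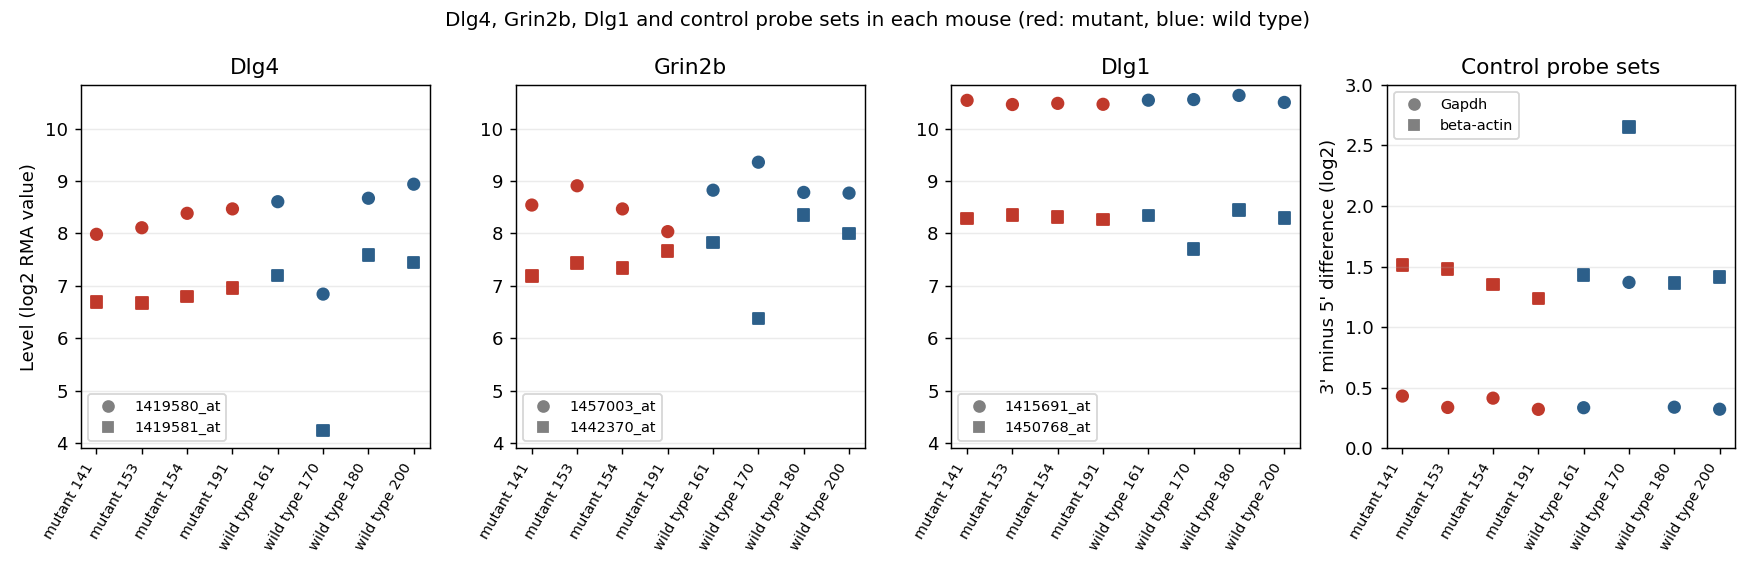
Log2 RMA level (first 3 panels, y axis) of probe sets of Dlg4, Grin2b and Dlg1 in each mouse, and, in the last panel, the 3′ minus 5′ log2 difference of controls for Gapdh and for beta-actin, 1 point per array, without error bars. Mouse 170 is low in both Dlg4 probe sets, in Grin2b 1442370_at and in Dlg1 1450768_at, not low in Grin2b 1457003_at or Dlg1 1415691_at, and its control differences of 1.37 and 2.65 are above those of every other mouse.

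Dlg2 encodes the MAGUK closest to PSD-95 in sequence and place. Its brightest probe set, 1437927_at, read 10.09, 10.11, 10.00 and 9.99 in mutants and 10.40, 10.05, 10.43 and 10.35 in wild-type mice, so mouse 170 alone fell among the mutants. The change was -0.31 ± 0.11 (SE; 95% interval -0.55 to -0.06; adjusted p = 0.145) and without that mouse -0.36 ± 0.09 (SE; adjusted p = 0.0367), a 1.29-fold lower signal. Probe set 1421199_at read 4.68, 5.11, 4.81 and 4.82 in mutants and 5.28, 5.27, 5.79 and 5.79 in wild-type mice, without overlap, although 3 of the mutant values were dim. Its change was -0.61 ± 0.17 (SE; 95% interval -0.99 to -0.23; adjusted p = 0.0646), the lowest estimate of the 27, and -0.68 without mouse 170 (adjusted p = 0.028). Leaving out mutant 153 instead also gave a call (-0.68, adjusted p = 0.0369). With no term for sex it was called with all mice (-0.68, adjusted p = 0.0139), while Grin2c was not, in a fit that called 8.78% of all probe sets. Probe set 1421200_at, annotated to the same record as 1421199_at, was dim in every mouse and changed by -0.23 (adjusted p = 0.627), and by -0.36 without mouse 170 (adjusted p = 0.0962). The 3 probe sets of Dlg2 thus all had estimates below 0.

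Dlg1 and Dlg3 encode the other MAGUKs of the group, which are known for carrying receptors along the secretory path as well as for anchoring them. Dlg1 1415691_at averaged 10.49 ± 0.04 (SD, n = 4) in mutants and 10.56 ± 0.06 (SD, n = 4) in wild-type mice, with a change of -0.07 whose 95% interval ran from -0.26 to 0.11. Dlg1 1450768_at read 8.27 to 8.35 in mutants and 8.29 to 8.45 in the wild-type mice other than mouse 170, which read 7.70, and its change turned from 0.05 (95% interval -0.32 to 0.42) to -0.06 (-0.26 to 0.14) without that mouse. Dlg3 1416918_at averaged 9.54 ± 0.08 (SD, n = 4) in mutants and 9.51 ± 0.07 (SD, n = 4) in wild-type mice, with a change of -0.02 and an interval from -0.21 to 0.17. Without mouse 170 the changes of Dlg1 1415691_at and Dlg3 were -0.07 and 0.01. The dim Dlg1 1445798_at changed by -0.08.

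Dlgap1 had 6 probe sets, and their changes ran from -0.11 to 0.17, with none called in either fit. The brightest, 1453027_at, averaged 9.03 ± 0.20 (SD, n = 4) in mutants and 8.94 ± 0.24 (SD, n = 4) in wild-type mice, with a change of 0.04 and a 95% interval from -0.31 to 0.40. Probe set 1436076_at changed by -0.07, 1429105_at by -0.11, 1440639_at by 0.03, 1443508_at by 0.02 and the dim 1438098_at by 0.17. Mutant 154 was the highest of the mutants in each of 1453027_at (9.34), 1436076_at (8.40), 1429105_at (8.38), 1440639_at (6.61) and 1443508_at (6.24). In 1436076_at and 1429105_at it lay inside the wild-type ranges of 8.08 to 8.48 and 8.04 to 8.45.

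Probe sets of a gene were also compared with its brightest probe set within each array. None of the 17 such pairs of these genes differed in its genotype effect (lowest adjusted p = 0.411 in limma, 0 at an unadjusted p under 0.05, and 0 called without mouse 170), against 429 of 16752 pairs over all genes. The estimated differences ran from -0.30, for Dlg2 1421199_at against 1437927_at, to 0.46, for the dim Grin2b 1422223_at against 1457003_at. A genotype effect that differed between the sexes was likewise found for 0 of the 27 (lowest adjusted p = 0.997, 0 at an unadjusted p under 0.05). Over all probe sets it was found for 0, with 1818 at an unadjusted p under 0.05 and 1 called with a trended and robust prior. Only 1 mouse stood for female wild type and 1 for male mutants in that test.

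Beside these genes, 5 lists of other genes of the pathway were read, each gene at its brightest probe set. They held 96 genes, of which 86 were measured, and 25 fell and 3 rose. Over the brightest probe sets of all 18193 genes, 4.73% fell and 4.54% rose, with a median change of 0.01. The lists were chosen with earlier results of these data known, and the genes behind those shares were not matched to them for level. The only other NMDA receptor subunit measured was Grin3b, which encodes GluN3B. It was dim in every mouse and changed by 0.04 (adjusted p = 0.924).

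Of 17 other scaffold genes measured, 8 fell and none rose, with a median change of -0.48. Of the 9 not called, Dlg5 (0.37, adjusted p = 0.186) and Homer2 (0.30, adjusted p = 0.212) had the highest estimates. For both, every mutant lay above every wild-type mouse, as for 3758 of all 45037 probe sets. Actn2, an actinin that binds the GluN1 tail and actin, averaged 7.40 ± 0.16 (SD, n = 4) in mutants and 8.77 ± 0.12 (SD, n = 4) in wild-type mice, a change of -1.26 (adjusted p = 0.000100) and a 2.39-fold lower signal. Homer1, which ties Shank proteins to metabotropic glutamate receptors, averaged 10.16 ± 0.07 (SD, n = 4) in mutants, the highest of which read 10.27, and 11.02 ± 0.02 (SD, n = 4) in wild-type mice. The groups lay far apart relative to the spread within each, with a change of -0.87 (adjusted p = 0.000433). Ppp1r9a, the actin-binding spine protein neurabin, changed by -0.58 (adjusted p = 0.00331). Dlgap3, the member of the Dlgap1 family most abundant in striatum, averaged 9.82 ± 0.06 (SD, n = 4) against 10.32 ± 0.13 (SD, n = 4) and changed by -0.48 (adjusted p = 0.019), while Dlgap4, another relative, changed by 0.00 (adjusted p = 0.994). Shank3, a scaffold at the base of the postsynaptic density, read 9.70 to 9.84 in mutants and 10.47 to 10.60 in wild-type mice other than mouse 170, which read 9.71. Its change was -0.59 (adjusted p = 0.124) with that mouse and -0.72 (adjusted p = 0.00186) without it.

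Of 23 enzymes that act on or downstream of the receptor, 9 fell and none rose, with a median change of -0.31. Prkcb, a protein kinase C, averaged 11.66 ± 0.07 (SD, n = 4) in mutants and 12.35 ± 0.04 (SD, n = 4) in wild-type mice, a change of -0.71 (adjusted p = 0.00107). Ppp3ca, a catalytic subunit of calcineurin, changed by -0.78 (adjusted p = 0.00131), while Ppp3cb, another, changed by 0.02 (adjusted p = 0.956). Kalrn, an exchange factor for Rac in spines, changed by -0.95 (adjusted p = 0.00176). Over 25 alternative fits the Kalrn change ran from -1.02 to -0.50, and it was called in each. Ptpn5, the striatum-enriched phosphatase STEP that removes phosphate from GluN2B, averaged 10.31 ± 0.15 (SD, n = 4) against 10.98 ± 0.03 (SD, n = 4) and changed by -0.73 (adjusted p = 0.00226). Camk2a, the kinase that binds GluN2B after calcium entry, read 10.80 to 11.09 in mutants and 11.33 to 11.55 in wild-type mice other than mouse 170, at 10.94. Its change was -0.50 (adjusted p = 0.0918), and -0.58 (adjusted p = 0.013) without mouse 170. Mouse 170 thus lay among the mutants for Camk2a and Shank3 as it did for Dlg2 1437927_at.

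Of 22 genes of co-agonist supply and receptor transport, 3 fell and 1 rose, with a median change of -0.02. Srr, serine racemase, which makes D-serine, changed by -0.56 (adjusted p = 0.00902), although over the mean of its probe sets the change was -0.14 (adjusted p = 0.347). Lin7b, part of the complex that links GluN2B to its motor, changed by -0.65 (adjusted p = 0.0104). Kif17, the motor that carries GluN2B along dendrites, changed by -0.64 (adjusted p = 0.0127). Zdhhc2, a palmitoyl transferase that acts on PSD-95, was the gene that rose, by 0.48 (adjusted p = 0.0358), with groups that overlapped and an adjusted p of 0.129 with no term for sex. Over the mean of its probe sets Zdhhc2 changed by 0.41 (adjusted p = 0.0586).

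Of 23 membrane partners of MAGUKs, 5 fell and 2 rose, with a median change of -0.13. Lrrtm1, a synaptic adhesion protein, averaged 8.09 ± 0.15 (SD, n = 4) in mutants and 9.09 ± 0.08 (SD, n = 4) in wild-type mice, a change of -0.94 (adjusted p = 0.000891). Over 25 alternative fits the Lrrtm1 change ran from -1.12 to -0.68, and it was called in each. Cacng4, an auxiliary subunit of AMPA receptors, changed by -0.75 (adjusted p = 0.00134). Kcna4, a potassium channel whose tail binds MAGUKs, changed by -0.74 (adjusted p = 0.00243). The genes that rose were Slitrk1 (0.72, adjusted p = 0.0227) and Nlgn3 (0.56, adjusted p = 0.0451), named because they were the only risers, and both encode synaptic adhesion proteins. Over the mean of its probe sets Nlgn3 changed by 0.26 (adjusted p = 0.0713), and after quantile normalization once more by 0.54 (adjusted p = 0.0571).

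**Figure D4:**
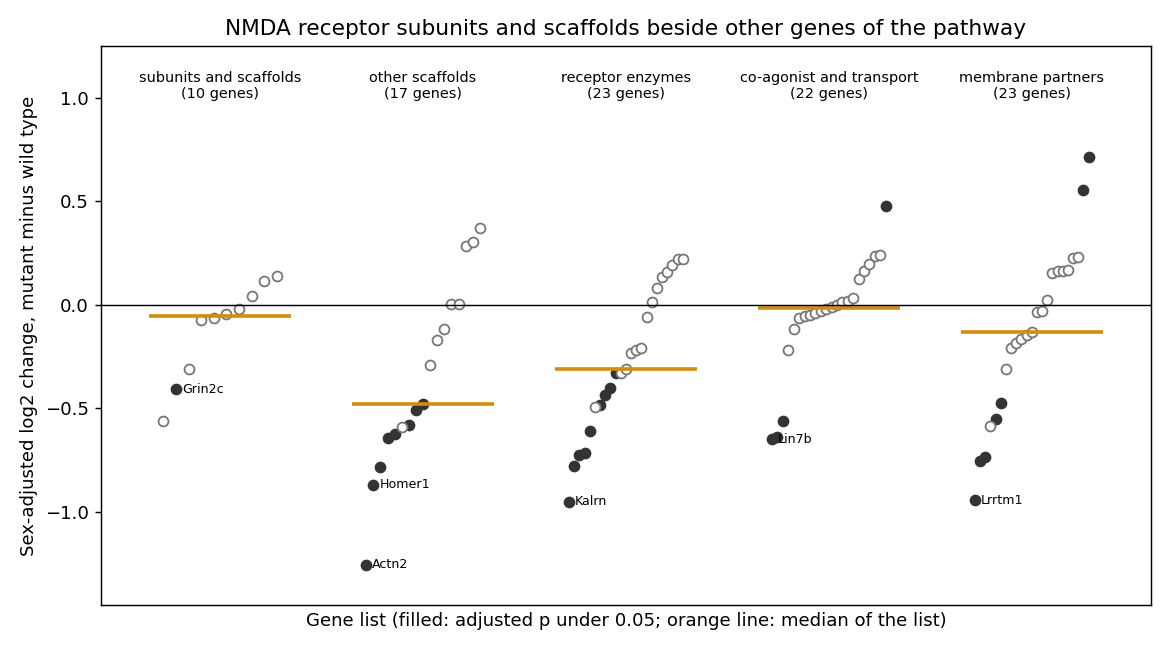
Sex-adjusted log2 change, mutant minus wild type (y axis), of the 10 receptor and scaffold genes and of the genes of 4 pathway lists, each at its brightest probe set, with 1 point per gene, filled where the adjusted p was under 0.05, and a line at each list's median. The other scaffolds lie lowest, with a median of -0.48, and Actn2 at -1.26 is the lowest gene plotted.

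Without mouse 170 the lists held 27 genes that fell and 3 that rose, against 4.57% of all genes that fell. Of these 30 genes 27 were also called with all mice, Prkca was lost, and Shank3, Camk2a and Ppp3r1, a regulatory subunit of calcineurin, were gained. Of the genes with the lowest adjusted p, Actn2 then changed by -1.29, Homer1 by -0.86, Prkcb by -0.72 and Lrrtm1 by -0.95. The number of list genes called dropped from 28 to 7 without mutant 191 and to 11 without wild-type 161, each of which leaves a sex with mice of 1 genotype. Actn2, Homer1, Prkcb, Ppp3ca, Kalrn, Lrrtm1 and Cacng4 were called whichever of these mice was left out. Dlgap3 was lost both times, at adjusted p = 0.196 without mutant 191 and 0.172 without wild-type 161, and Srr, Lin7b, Kcna4, Slitrk1 and Nlgn3 were lost both times too. Ppp1r9a, Ptpn5 and Kif17 were lost without mutant 191 and kept without wild-type 161. With sex in the fit, other single mice also ended calls: Slitrk1 was lost without wild-type 200, Nlgn3 without mutant 141 or wild-type 180 or 200, and Zdhhc2 without mutant 153, 154 or 191 or wild-type 180 or 200. Prkca, which fell by 0.33 (adjusted p = 0.0498), was lost whichever mouse was left out. The lists were described by counts and medians and not tested as sets.

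The striatal tissue was checked with cell type markers. Of 13 measured medium spiny neuron markers 11 fell, and their mean level was 10.03 to 10.25 in mutants and 11.27 to 11.36 in wild-type mice. Of 11 pan-neuronal markers 2 rose and none fell, with means of 10.61 to 10.83 against 10.38 to 10.57. Of 9 markers of cortical and other glutamatergic neurons 1 fell and 1 rose, and 2 were dim in every mouse. Their mean ran from 5.51 to 6.74 in mutants, where mutant 154 was the highest, and from 5.75 to 6.40 in wild-type mice. Fewer cells of a type and less RNA per cell cannot be told apart in these bulk samples, and what part the lower medium spiny neuron markers or the shifts of the other lists had in the changes of receptor, scaffold and pathway genes was not tested. Of 7 oligodendrocyte precursor markers 2 rose and none fell, and their mean ran from 7.99 to 8.04 in mutants and from 7.83 to 7.95 in wild-type mice, without overlap. Of 10 endothelial and mural markers none was called, and their mean ran from 6.77 to 6.88 against 6.94 to 7.21, also without overlap. Of 9 oligodendrocyte markers 1 fell and 1 rose, with means of 10.0 to 10.1 against 9.93 to 10.2, and of 9 microglia markers none was called. The choroid plexus list ranged from 5.54 to 7.43 in mutants and from 5.69 to 6.97 in wild-type mice, with no gene called.

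The genes whose values followed Grin2c most closely over the 8 mice were Aifm3, Palm, Unc5a, Farp2 and Rnf169. Each was read at its brightest probe set, and likeness was the root mean square difference after each probe set was centred on its mean over the 8 mice. It ran from 0.0562 for Aifm3 to 0.0615 for Rnf169, against a median of 0.232 over 18192 genes. For Dlg2 1421199_at the closest were C130030K03Rik, Zfpm1, Tmem94, Slc26a10 and Shf, from 0.106 to 0.134, against a median of 0.434. Of the first 5, Aifm3 (-0.43), Unc5a (-0.34) and Rnf169 (-0.46) were called lower, and of the second 5, Zfpm1 (-0.73), Tmem94 (-0.48) and Shf (-0.67). These lists were chosen for likeness over the same mice, so their changes are a description.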

How the data were processed

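Striatal RNA of each of the 8 mice was extracted with TRIzol and RNeasy, given a biotin label by in vitro transcription and put on its own Affymetrix Mouse Genome 430 2.0 array, per the labels' protocols. The deposited table holds log2 values for probe sets, which the authors made with RMA and affy, per the submitters' processing notes, where no version is named. RMA gives all arrays 1 distribution and compresses changes of dim genes. The number of arrays limits the precision, and detection calls were not used.

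Of 45101 probe sets 64 controls were left out of the fit, and of the other 45037, 34945 had 1 gene symbol, 932 had several and 9160 were not listed in the platform annotation. Those with several or none were tested but not named. Identifiers of 18032 of the 18193 genes were in the reference gene table. limma 3.58.1 in R 4.3.3 (lmFit, eBayes, no trend, not robust) was fitted to all probe sets with genotype and recorded sex, because 3 of 4 mutants and 1 of 4 wild-type mice were female. A p-value was adjusted by Benjamini-Hochberg over all probe sets, or over all pairs of probe sets within genes. A planned permutation test of Grin2b minus Grin2a is not given, since Grin2a was dim. Fold values are powers of 2 of the fitted change. On simulated data of the same size the fit recovered 26% of 100 probe sets changed by 0.5 and 82% of 100 changed by 1 on the log2 scale, with 4 false calls. For the test of sexes 74% of changes of 2 were recovered, and for the pairs of probe sets 63% of changes of 1. Far fewer probe sets were changed there than the 3019 called in the data, and noise was drawn independently for each probe set. Recovery in the data may therefore differ from these shares.

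The genes, the pathway and marker lists and the tests were chosen with earlier results of these data known. Named genes are all receptor and scaffold genes, Grin1, Dlgap3, Dlgap4, Shank3, Homer1, Camk2a and Ptpn5, for each list the 3 called genes of lowest adjusted p, and the 5 closest profiles of Grin2c and Dlg2. A further gene of the rule is not reported here. Zdhhc2, Slitrk1, Nlgn3, Prkca, Ppp3r1, Ppp3cb, Dlg5, Homer2 and Gabra6 were named after their values were seen. Each mouse number stands for an animal and occurs in 1 group. The fits tried as alternatives left out the sex term, used a prior that was trended and robust, normalized by quantiles or centred on medians once more, or dropped dim probe sets below the median. Others used a floor at 5 (log2 of 32), array weights, or 1 probe set or the mean of the probe sets per gene, other thresholds, and each mouse left out in turn with and without sex.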

Additional observations from a re-analysis of the deposited data

Results flagged for a closer look

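In 7 of 54 groups of 4 values, 1 mouse lay so far from the other 3 that the gap, as a share of the group's range, exceeded Dixon's 95% limit for 4 values, which chance exceeds in about 1 of 20 groups. Over all probe sets this held for 6.64% of the wild-type and 5.45% of the mutant groups. Wild-type mouse 170 was the mouse apart in 3 of the 7: it was the lowest wild type for Dlg4 1419580_at at 6.84 and for Dlg4 1419581_at at 4.24, and the highest for Grin2b 1457003_at at 9.36. Mutant 154 was the highest mutant for Dlgap1 1453027_at at 9.34 and for Dlgap1 1443508_at at 6.24. Wild-type mouse 161 was the highest wild type for Dlgap1 1440639_at at 6.56. Mutant 191, the only male mutant, was the lowest for Grin3a 1438866_at at 5.66.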

How the results depend on the processing

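No paired analysis was possible because the groups share no mouse number. The design is small, and mouse 161 is the only female wild type and mouse 191 the only male mutant, so that without either of them a sex holds mice of 1 genotype only. No depth applies to arrays, and 9 of the 27 probe sets were dim in every mouse, so their changes are compressed. The number of the 27 probe sets called was 2 with a trended and robust prior, with probe sets above the median level, with array weights or at an adjusted p under 0.10, and 0 at an adjusted p under 0.01. It ranged from 0 to 5 with single mice left out, and was 5 only without mouse 170. Over all probe sets the count was 1144 at an adjusted p under 0.01 and 1891 when probe sets were averaged per gene, where fewer features are tested, and ranged from 652 to 3428 with single mice left out. Pathway genes called were 14 at an adjusted p under 0.01 (5 scaffolds, 4 enzymes, 1 of co-agonist supply and transport, and 4 membrane partners), and 7 to 31 with single mice left out. By list that range was 2 to 9 for scaffolds, 3 to 10 for enzymes, 0 to 4 for co-agonist supply and transport and 2 to 9 for membrane partners, and over the mean of probe sets the list of co-agonist supply and transport gave 2. The Grin2b minus Grin2a difference (without a test, since Grin2a was dim) was -0.52 with sex as a term, and ran from -0.66 to -0.39 with single mice left out.

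Some estimates near 0 turned their sign. Without sex in the fit they were 0.084 for Grin2a, 0.015 for Grin2b 1422223_at, 0.024 for Dlg1 1445798_at and 0.030 for Dlg3. With array weights they were -0.24 for Dlg4 1419581_at, -0.00053 for Grin3a 1436575_at, -0.0095 for Dlg1 1450768_at and -0.050 for Dlgap4. Dlg4 1419581_at was -0.10 with the floor, and Dlgap4 was -0.10 over the mean of its probe sets. With single mice left out, with and without sex, the ranges that crossed 0 were -0.10 to 0.16 for Grin2a, -0.65 to 0.090 for Grin2b 1442370_at, -0.22 to 0.10 for 1422223_at and -0.27 to 0.055 for 1431700_at. They were -0.14 to 0.37 for Grin2d 1442328_at, -0.040 to 0.17 for 1421393_at, -0.042 to 0.31 for Grin3a 1436575_at and -0.037 to 0.20 for 1458378_at. For the MAGUKs they were -0.062 to 0.19 for Dlg1 1450768_at, -0.14 to 0.10 for Dlg1 1445798_at, -0.40 to 0.00328 for Dlg2 1421200_at and -0.080 to 0.069 for Dlg3. The Dlg4 ranges were -0.50 to 0.32 for 1419580_at, -0.63 to 0.53 for 1419581_at and -0.23 to 0.10 for 1460261_at. For Dlgap1 they were -0.025 to 0.20 (1453027_at), -0.17 to 0.028 (1436076_at), -0.056 to 0.17 (1440639_at) and -0.10 to 0.18 (1443508_at), for Dlgap4 -0.077 to 0.11 and for Grin3b -0.064 to 0.15. Of these results, calls were made only without mouse 170, for Grin2b 1442370_at and for both brighter Dlg4 probe sets (1419580_at only when sex was left out too). Grin3a 1438866_at was called higher, at 0.49 (adjusted p = 0.0262), when sex and mouse 161 were both left out. Grin2c and the brighter Dlg2 probe sets stayed below 0 in every setting run. Among the alternatives to the main fit, Grin2c was called in 12 of 25. Dlg2 1421199_at, not called in the main fit, was called in 14 of 23, and Dlg2 1437927_at in 2 of 25. The cause of these changes was not tested.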
